A study of Homo sapiens with 5 samples.

Results

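MHC class I antigen presentation was followed through 9 genes in IMR32, an established human neuroblastoma cell line, while a stably integrated hairpin against the homeobox gene MEIS1 was switched on with doxycycline. The genes were taken by name: the class I heavy chains HLA-B, HLA-C, HLA-E and HLA-F, the light chain B2M, the peptide transporter subunits TAP1 and TAP2, the loading factor TAPBP and the transactivator NLRC5. They are 9 of 21357 genes named on the Affymetrix U133 Plus 2.0 array. Every probe set annotated to one of them was used, 25 of 54675, and 0 of the 25 were annotated to a further gene. The 5 arrays were 4 of cells given doxycycline for 24, 48, 96 and 192 h and 1 of cells without it, labelled 0 h, with 1 array of total RNA at each time. All 5 carried the inducible MEIS1-shRNA, described as specific for the MEIS1b form, so the controls held the hairpin construct too. Cells given doxycycline without this hairpin, and cells kept to later times without doxycycline, were not analysed here. Whether the stable cells were 1 clone is not given in the sources used here. With no replicate at any time, time in culture, doxycycline and the hairpin cannot be told apart, and in a bulk sample neither can fewer cells of a type and less RNA per cell.

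MHC class I molecules show fragments of a cell's own proteins to cytotoxic T cells and are read by receptors on natural killer cells. A heavy chain pairs with beta-2-microglobulin and takes up a peptide in the endoplasmic reticulum, where the TAP1 and TAP2 transporter delivers peptides cut by the proteasome and tapasin, the product of TAPBP, holds the empty heavy chain beside it. Transcription of these genes is driven by interferon through response elements, by NF-kB, and by NLRC5, which is recruited to a composite of S, X and Y boxes near the start of class I and B2M genes. Neuroblastoma is known for low surface class I.

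The bases ahead of the transcription start are shown for 4 of the genes because they carry these elements: B2M was the bright gene, TAPBP the one with the largest fitted change, and HLA-B and HLA-C are the polymorphic heavy chains, of which HLA-B was below the signal minimum and HLA-C above it. Each is the 250 bases before the RefSeq start, 5′ to 3′ on the strand of the gene, in build GRCh38.p14. B2M lies at chr15:44711267-44711516 on the plus strand. The other 3 are on the minus strand, TAPBP at chr6:33314079-33314328, HLA-B at chr6:31357180-31357429 and HLA-C at chr6:31272093-31272342. Capitals mark every match, on either strand, to GAAA repeated after any 2 bases (the core of the interferon-stimulated response element), TGACG (the X2 box core that CREB and ATF factors read), ATTGG (the Y box that NF-Y reads) and TGACAG (the hexamer known for MEIS proteins). These are reference sequences, not those of IMR32.
B2M: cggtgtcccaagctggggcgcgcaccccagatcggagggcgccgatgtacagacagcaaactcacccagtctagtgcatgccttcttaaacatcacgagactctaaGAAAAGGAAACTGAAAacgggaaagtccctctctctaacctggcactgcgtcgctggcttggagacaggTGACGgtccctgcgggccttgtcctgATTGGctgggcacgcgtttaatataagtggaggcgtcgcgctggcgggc
TAPBP: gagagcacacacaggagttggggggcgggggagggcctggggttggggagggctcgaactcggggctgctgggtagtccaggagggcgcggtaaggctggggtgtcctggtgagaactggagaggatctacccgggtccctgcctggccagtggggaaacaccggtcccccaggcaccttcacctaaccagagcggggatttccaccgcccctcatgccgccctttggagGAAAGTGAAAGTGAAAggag
HLA-B: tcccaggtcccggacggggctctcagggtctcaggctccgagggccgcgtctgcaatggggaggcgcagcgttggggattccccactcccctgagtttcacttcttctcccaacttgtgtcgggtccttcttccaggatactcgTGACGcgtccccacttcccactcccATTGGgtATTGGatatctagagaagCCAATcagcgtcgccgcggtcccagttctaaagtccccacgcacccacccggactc
HLA-C: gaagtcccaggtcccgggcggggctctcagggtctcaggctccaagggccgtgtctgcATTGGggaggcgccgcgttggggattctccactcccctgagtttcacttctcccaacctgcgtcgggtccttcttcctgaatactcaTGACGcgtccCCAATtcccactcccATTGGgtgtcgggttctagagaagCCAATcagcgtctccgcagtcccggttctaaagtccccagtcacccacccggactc
The interferon response core was found in 3.02% of all 35116 RefSeq windows of this length, and B2M, TAPBP and 1 of the 2 TAP1 windows each held it as a pair of matches that overlap. In TAPBP the pair began 20 and 14 bases before the start, in B2M 144 and 138 bases before it, and in TAP1, on the opposite strand, 134 and 128 bases before it. TGACG followed by ATTGG was found in B2M (75 and 49 bases before the start), in HLA-B (106, then 81 and 74) and in HLA-C (105, then 80). Windows with both of these motifs anywhere made up 7.26% of all windows, while TGACG was in 21.2% and ATTGG in 32%, with or without the other. HLA-F and TAP2 held the interferon response core as 1 match each. TGACAG, present in 13% of all windows, was in none of the 8 windows of the 7 members that had one. A match is a description of letters, and no binding was measured here.

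The arrays were close in scale, with medians of all signals between 16 and 19, while the mean log2 level of 24 poly-A spike-in probe sets was 8.20 at 0 h and 8.30, 7.74, 7.57 and 7.94 on the later arrays. MEIS1, the target of the hairpin, had 1052 before doxycycline in its brightest probe set, then 851.5, 847.2, 857 and 786.6, and its log2 change of -0.33 ± 0.14 (SE) did not pass (limma adjusted p = 0.336, by the trend test described next). Of 8 measured sympathoadrenal markers 7 were above the signal minimum, with MYCN at 3957 to 4418, and CHGA rose (1.04; adjusted p = 0.0144). Blood and antigen-presenting cell markers, whose cells are rich in class I, were all below it (7 of 7 measured), with summed signals of 48.6 to 77.7. Of 6 fibroblast and mesenchymal markers 4 were tested and PDGFRA alone passed. It fell by 1.85 on the log2 scale (adjusted p = 6.12e-04), with 131.6 at 192 h against 457.3 at 0 h. PDGFRB (-0.50), COL3A1 (-0.49) and THY1 (-0.04) did not pass. Of 4 measured endothelial markers 1 was tested, CDH5 (-0.43; adjusted p = 0.793). Of 3 measured Schwann markers 1 was tested, ERBB3 (1.035; adjusted p = 0.387). The part of the CHGA and PDGFRA changes in the values of the class I genes was not tested.

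The question the arrays address is whether transcripts of this pathway followed the time of induction. None of the 10 probe sets bright enough to be tested passed the threshold used: 0 rose and 0 fell, where 492 of all 26805 tested probe sets (1.84%) passed, 1.09% upward and 0.742% downward. B2M stayed bright throughout, TAPBP had 1 probe set with an upward course that missed the threshold, and HLA-B, TAP1, TAP2 and NLRC5 had no probe set above the signal minimum. With 10 probe sets and a background share of this size, a count of 0 does not set these genes apart from the rest of the array. The test was a straight line through log2(signal + 4.7) on the 5 arrays in order of time, fitted with limma over all tested probe sets. The fitted change is 4 times the slope per step, also in fits with an array left out, and is given with its standard error (SE). A probe set was tested if its MAS5 signal averaged 17.9 or more, the median of all signals, and rose or fell if its Benjamini-Hochberg adjusted p was under 0.05. At an unadjusted p under 0.05, 1 of the 10 member probe sets (10%) passed, against 13.6% of all tested probe sets. The median fitted log2 change was -0.04 over the 10 and 0.02 over all tested probe sets.

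**Figure D1:**
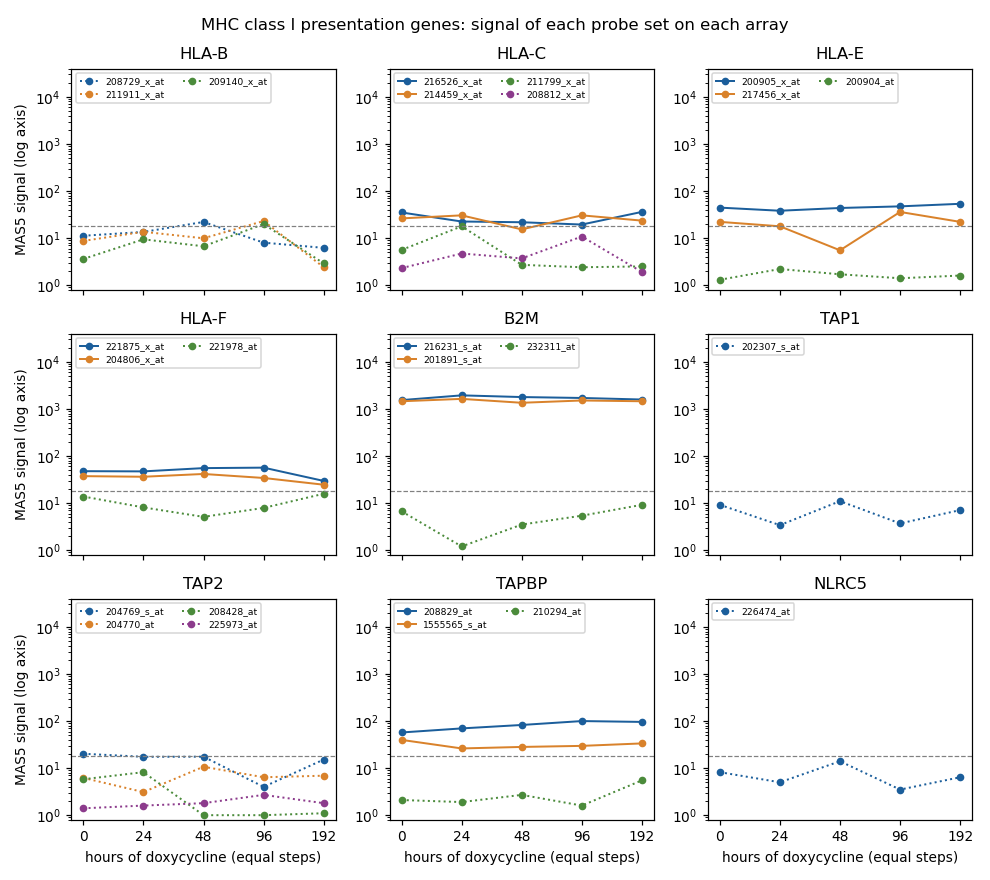
MAS5 signal (log axis) of the 25 probe sets of the 9 genes at 0, 24, 48, 96 and 192 h of doxycycline, drawn at equal steps, with 1 array per point. Solid lines are the 10 tested probe sets, whose mean signals reach 17.9 (grey dashed line), and dotted lines the 15 below it; the 2 bright B2M probe sets lie between 1354.6 and 1947.2 on all arrays.

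B2M, the invariant light chain that every class I heavy chain needs, was measured by 2 bright probe sets. The brighter one had 1544.1 before doxycycline, then 1947.2, 1792.1, 1713.9 and 1588.9 in order of time. The other had 1458.7 before doxycycline, then 1639.5, 1354.6, 1515.5 and 1459.5. Both were highest at 24 h, and at 192 h their log2 ratios to 0 h were 0.04 and 0.0008. The log2 change along the line was -0.04 ± 0.16 (SE) for the brighter and -0.04 ± 0.15 for the other, with limma adjusted p of 0.954 and 0.942. Their 95% intervals ran from -0.39 to 0.31 and from -0.37 to 0.28. On this scale that leaves room for a fold between 0.761 and 1.24, and between 0.776 and 1.21, along the line from 0 to 192 h. These intervals do not bound the values on single arrays. At 24 h the log2 ratio of the brighter to 0 h was 0.33, above the upper end of its interval. The third B2M probe set gave 1.2 to 9.2 and was not tested.

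The heavy chains are the polymorphic chains that hold the peptide (HLA-B and HLA-C) or the less variable chains HLA-E, which presents leader peptides of other class I chains to natural killer cells, and HLA-F. They had 13 probe sets, of which 6 were tested. All 6 end in _x_at, the array's mark for probe sets with probes that also match other transcripts, as do 11 of the 13. Class I heavy chains are near-identical copies of one another, so the gene behind each of these signals is uncertain. The 3 probe sets of HLA-B were dim. Its brightest had 11.2 before doxycycline, then 13.5, 22.0, 8.0 and 6.2 in order of time. The others were highest at 96 h (23.0 and 19.8) and lowest at 192 h (2.4 and 2.9). The 3 were thus all lowest at 192 h, while the brightest peaked at 48 h and the others at 96 h, and none of them was tested.

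For HLA-C, the brightest probe set had 35.0 before doxycycline, then 22.5, 21.7, 19.4 and 36.0. It was lower on the 3 arrays in between than at either end, and its change along the line was -0.04 ± 0.45 (SE; limma adjusted p = 0.984). The next had 26.2 before doxycycline, then 30.4, 15.3, 30.4 and 23.5, with a change of -0.11 ± 0.45 (adjusted p = 0.957). The courses differed: at 96 h the brightest was at its lowest and the next at its highest, which it also had at 24 h. The remaining 2 HLA-C probe sets gave between 1.9 and 17.8 and were not tested.

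HLA-E had 44.4 before doxycycline in its brightest probe set, then 38.1, 43.6, 47.2 and 53.5. It was lowest at 24 h and highest at 192 h, and the log2 change along the line was 0.31 ± 0.30 (SE; limma adjusted p = 0.736; 95% interval -0.34 to 0.95). Its next probe set, the dimmest of the tested ones, had 22.1 before doxycycline, then 17.8, 5.5, 35.9 and 22.1, and its change was 0.34 ± 0.68 (adjusted p = 0.892). The array at 48 h held its lowest value, more than 2-fold under 0 h (a log2 ratio of -1.39). That was the 1 such ratio in either direction among the 10 tested member probe sets over the 4 induced arrays. Of all tested probe sets, 0.735%, 1.17%, 2.15% and 2.23% were at least 2-fold above 0 h at 24, 48, 96 and 192 h. In the same order, 1.23%, 1.02%, 1.39% and 1.76% were at least 2-fold below. The third HLA-E probe set does not end in _x_at and gave 1.3 to 2.2 on the 5 arrays, near the floor of 1.

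HLA-F had 2 tested probe sets, both lowest at 192 h. The brighter had 47.7 before doxycycline, then 47.2, 55.4, 56.7 and 29.6, a log2 change along the line of -0.39 ± 0.36 (SE; limma adjusted p = 0.718). The other had 37.4 before doxycycline, then 36.3, 41.6, 34.2 and 24.6, with -0.45 ± 0.35 (adjusted p = 0.653). Their log2 ratios to 0 h were -0.61 and -0.52 at 192 h and between -0.11 and 0.23 at the earlier times. The change of the brighter was 0.36 without the 192 h array, so its sign rested on that array. The third had 15.8 at 192 h against 13.8 at 0 h, and was not tested.

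**Figure D2:**
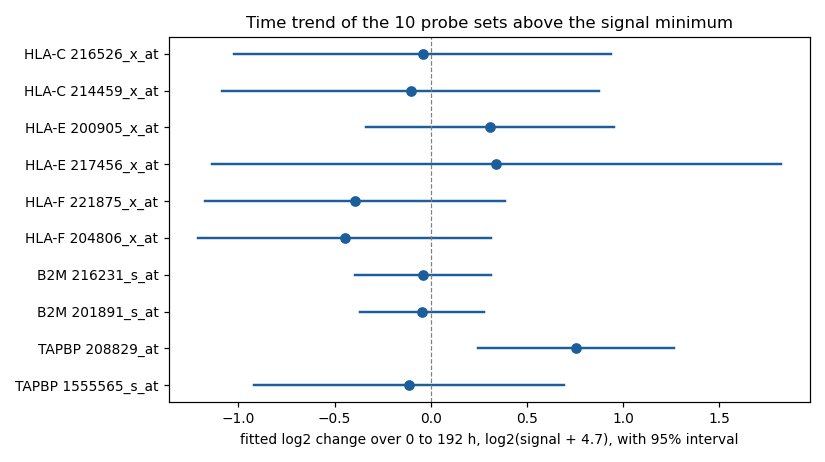
Fitted log2 change over the course (points) and its 95% interval (lines) for the 10 tested probe sets, named by gene and probe set; the dashed line marks no change. The 2 B2M intervals are the narrowest, 9 of the 10 intervals span 0, and that of the brightest TAPBP probe set runs from 0.25 to 1.27 before adjustment over all probe sets.

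Of the loading machinery, TAPBP (tapasin, the bridge between heavy chain and transporter) was above the signal minimum. Its brightest probe set had 57.2 before doxycycline, then 69.8, 82.6, 100 and 95.9. All 4 induced arrays were above 0 h, and the signal was higher at each step up to 96 h. The log2 change along the line was 0.76 ± 0.23 (SE), the largest in size among the tested members, with an unadjusted p of 0.00713 and a limma adjusted p of 0.148. An unadjusted p this low was reached by 1289 of all tested probe sets (4.81%). The change was positive under all 14 alternative settings tried (0.60 to 1.0), and its adjusted p lay between 0.116 and 0.58 in them. Some of these settings could not turn its sign. The change stayed at 0.76 under both signal filters, with the brightest probe set per gene and without the 48 h array, the middle step.

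A further TAPBP probe set did not follow it. It had 39.8 before doxycycline, then 26.2, 28.2, 29.7 and 33.5, below 0 h on every induced array, with a log2 change of -0.11 ± 0.37 (SE; limma adjusted p = 0.94). The trend of the difference between the 2 probe sets, looked at after their values were seen, was 0.87 (exact permutation p = 0.1, two-sided, over the 120 orders of the arrays, where the smallest possible p is 0.0167). That difference did not pass 0.05. The third TAPBP probe set gave 1.6 to 5.5 and was not tested.

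The transporter genes and the transactivator were dim. TAP1, a subunit of the transporter, had 9.2 before doxycycline in its single probe set, then 3.4, 11.0, 3.7 and 7.1. TAP2, the partner subunit, had 20.2 in its brightest, then 17.4, 17.5, 4.0 and 15.2. That probe set's mean of 14.9 was the closest below the minimum among the members, and the dimmer tested HLA-E probe set, at 20.7, the closest above. The other 3 TAP2 probe sets gave 1.0 to 10.7. NLRC5, the transactivator, had 8.2 before doxycycline in its single probe set, then 5.0, 14.0, 3.5 and 6.4. TAP1 and NLRC5 were both highest at 48 h, and the brightest TAP2 probe set was lowest at 96 h. Detection calls were not analysed here, so dim does not mean that a transcript was absent. A signal also depends on the probes, so signals of different genes do not give their relative amounts.

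Around these members stand genes that cut, trim, sense or imitate class I, written down as 8 lists with earlier results of these arrays known. Of their 121 genes, 113 had a probe set named for that gene alone and 75 were tested, each by its brightest probe set. Among the 75 genes, 0 rose and 3 fell, and all 3 were interferon-stimulated genes. Of all tested probe sets, 1.09% rose and 0.742% fell. Those shares are over probe sets and not over genes. In the fit with the brightest probe set per gene, 241 of 11944 rose and 174 fell, and of the 75 genes 0 rose and 5 fell. IFITM2 and IFITM3, membrane proteins that block virus entry, fell by 1.20 ± 0.23 (SE; limma adjusted p = 0.0221) and by 1.07 ± 0.23 (adjusted p = 0.0335) on the log2 scale. IFI44L, an interferon-induced cytoplasmic protein, fell by 1.83 ± 0.42 (adjusted p = 0.0493). IFITM2 and IFITM3 are close copies measured by _x_at probe sets, so their signals may share transcripts. Of 25 interferon-stimulated genes 11 were tested. A negative fitted change was found for 9 of the 11, where 12845 of all 26805 tested probe sets were negative. The median of the 11 was -0.76 against 0.02 over all tested probe sets. The other 14 were below the minimum.

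The 3 genes were lowest at 192 h. The log2 ratio to 0 h there was -1.30 for IFITM2, -1.18 for IFITM3 and -2.36 for IFI44L. Without the 192 h array 0 of the 75 genes passed, and the log2 changes were smaller, at -0.62 for IFITM2, -0.49 for IFITM3 and -0.64 for IFI44L. Without the 0 h array IFITM2 alone passed, with changes of -1.60, -1.45 and -1.97 in the same order. Without the 24 h array IFI44L alone passed, with changes of -1.19, -1.08 and -2.07. At 192 h the ratio of the brightest TAPBP probe set was 0.70. Whether the interferon-stimulated genes and the class I genes differ in trend was not tested.

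**Figure D3:**
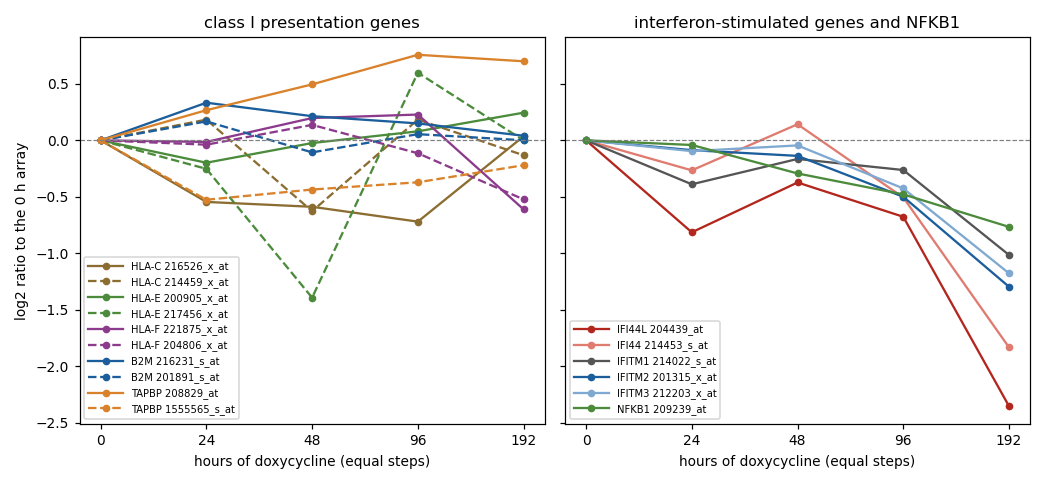
Log2 ratio to the 0 h array, on the log2(signal + 4.7) scale, at each time (equal steps) for the 10 tested class I probe sets (left; 1 line each, dashed for a gene's dimmer probe set) and for 5 interferon-stimulated genes and NFKB1 (right; IFI44, IFITM1 and NFKB1 were picked after their values were seen). At 192 h the class I probe sets lie between -0.61 and 0.70, and IFI44L, the lowest line on the right, at -2.36.

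No tested gene of peptide supply passed. The immunoproteasome swaps interferon-inducible subunits into the proteasome. Of 4 measured genes of that list, PSMB10 (fitted log2 change 0.16; limma adjusted p = 0.882) and the activator subunit PSME1 (0.04; 0.954) were tested. PSMB8 and PSMB9, named after their values were seen, read 1.0 to 1.6 on all 5 arrays. All 13 tested constitutive proteasome subunits had a negative fitted change, with a median of -0.19, where 12845 of all 26805 tested probe sets were negative, and 0 of the 13 passed. This was not a steady decline. Their summed signal was 30330 before doxycycline, then 32150, 32520, 30370 and 26700, below 0 h on the 192 h array alone. The sum weighs bright subunits most, and single subunits differed. At 96 h PSMB4 had 5036 against 4409 at 0 h, while PSMB2 had 2514 against 2831. PSMB2 (-0.36; adjusted p = 0.284) and PSMB1 (-0.31; 0.384) were the furthest. Among 12 tested genes of peptide trimming, loading and folding, 0 passed and the median was 0.04. The peptidase gene THOP1 had the largest change (0.42; adjusted p = 0.317), followed by ERAP1, the aminopeptidase that trims class I peptides (0.29; 0.744). The chaperone genes CANX and CALR, named after their values were seen, had 0.01 and 0.19.

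The next list held transcription factors that act on class I genes and the Polycomb subunits EZH2, EED and SUZ12. Of its 18 tested genes 0 passed, with a median fitted log2 change of 0.02. The NF-kB subunits NFKB1 and NFKB2 had the largest changes. NFKB1 had 153 before doxycycline, then 148.6, 124, 108.5 and 88.0, lower at every step, with a change of -0.79 ± 0.19 (SE; limma adjusted p = 0.068). Adjusted over genes instead of probe sets its adjusted p was 0.0498. NFKB2 had -0.74 ± 0.32 (adjusted p = 0.325). At an unadjusted limma p under 0.05 stood 6 of the 18, against 13.6% of all tested probe sets. Besides NFKB1 and NFKB2 they were NFYA (-0.54; adjusted p = 0.131), EZH2 (-0.45; 0.269), EED (-0.44; 0.230) and STAT3 (0.36; 0.362). These too were named after their values were seen. Of the 18, 10 had a positive and 8 a negative change. Of 3 others chosen after their values were seen, RELA, the transactivating partner, had 0.05, IRF1, an interferon-induced factor of class I promoters, had -0.006 and the X box factor RFX5 had 0.29 (adjusted p = 0.396).

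A further list held interferon and TNF receptors, JAK kinases and related signalling genes, among them SOCS1, SOCS3 and CGAS. Among its 11 tested genes 0 passed, with a median of 0.009. SOCS1, a feedback inhibitor of interferon signalling, had 0.56 (limma adjusted p = 0.672) and the receptor chain gene IFNAR2 0.45 (0.565). Of 14 measured class I-like molecules and ligands of natural killer receptors 7 were tested and 0 passed. NECTIN2, a ligand of natural killer receptors, had the largest change of them (-1.24, limma adjusted p = 0.438). It averaged 18.4, near the minimum, with 18.0 before doxycycline, then 24.0, 24.7, 22.2 and 3.3. It was thus below 0 h on the 192 h array alone. PVR had 0.55 (limma adjusted p = 0.424). Of the 10 class II genes, which belong to antigen-presenting cells, 1 was above the minimum: HLA-DMB, with 0.38 (adjusted p = 0.742).

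**Figure D4:**
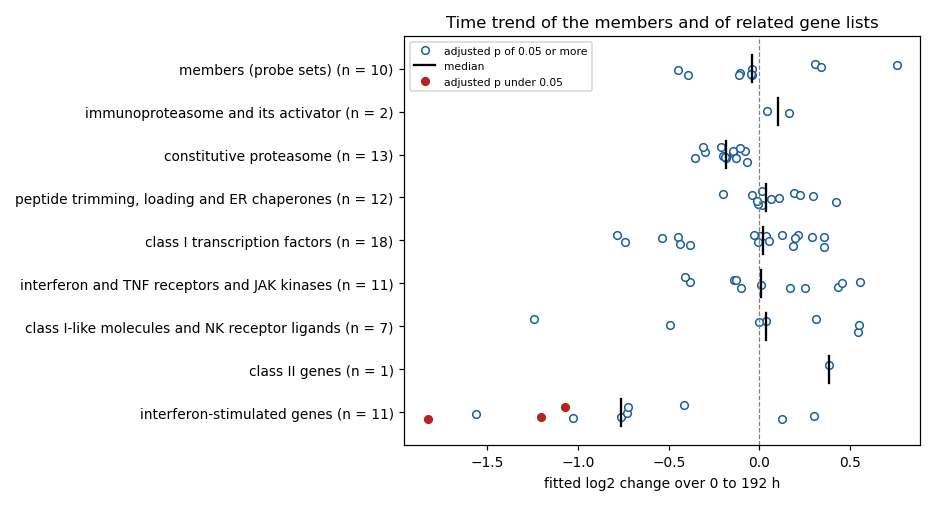
Fitted log2 change over the course for the 10 tested member probe sets (top) and for the tested genes of 8 related lists, 1 point each, with the median as a black bar; points are spread vertically for display. Filled red points passed an adjusted p of 0.05: 0 of the members and 3 interferon-stimulated genes, at -1.07, -1.20 and -1.83.

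By the rule of likeness, the 3 heavy chain genes with a tested probe set (HLA-C, HLA-E and HLA-F) were averaged into a profile that spanned 0.43 log2 units. It was lowest at 48 h. The log2 ratio to 0 h there was -1.39 for the dimmer HLA-E probe set and -0.59 and -0.63 for the tested HLA-C ones. For the tested HLA-F probe sets it was 0.20 and 0.14, and for the brighter HLA-E one -0.02. The profile thus averages courses that differ. The 8 genes most like it over the 5 arrays, among 2-fold ranging genes, had Pearson r of 0.93 to 0.98: NEURL2, ZNF646, FCGRT, STAG3L3, UBALD1, NPM2, PC and B3GNT4. None of the 8 passed the time trend, which is no separate result, since they were picked for a course that is not a line. The course of the brightest TAPBP probe set, a profile added after its values were seen, was most like those of KLHDC8B (r = 0.999), RABGEF1, PRPH, DDC, SYT17, ARMC12, SCUBE1 and GPRASP1 (0.99 or above). Of these, 6 rose, among them the neuronal filament gene PRPH and DDC, which makes dopamine. They were picked for likeness to a rising course and a wide range on the same arrays. That count therefore largely follows from the choice and is no separate result. With 5 points such values of r are a description, and the arrays share 1 scaling each.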

How the data were processed

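Total RNA of IMR32 cells was hybridised to 5 arrays. Per the submitters' processing notes the authors used MAS5 and GCOS. The deposited table holds log2 MAS5 signals; the base was settled from the values, since 100% of the back-transformed signals were multiples of 0.1 to within 0.01. No source used here gives the floor or the scaling target. Trimmed means of 100.02 to 100.03 showed that arrays had been scaled as a whole.

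Signals were put back on the linear scale and an offset of 4.7 was added before log2, so folds of dim genes come out too small. After dropping 62 controls, the 26805 probe sets averaging 17.9 or more were fitted with limma 3.58.1 in R 4.3.3 (two-sided eBayes with an intensity trend; degrees of freedom 3 residual, 9.01 prior), on probe sets since the members are probe sets. The fit was tested on simulated data with independent noise in every value. Those data hold no shift shared by the probe sets of an array, so that test says nothing about such shifts. Residuals hold noise and departure from a line, and p-values measure only the scatter of 5 single arrays. MAS5 background subtraction makes low signals noisy, and the number of arrays limits the precision. Gene names came from GEO's platform annotation (1 gene for 41097 probe sets, several for 1801, and 11721 unnamed), updated by gene identifier in RefSeq of GRCh38.p14 (41043 matched). RefSeq promoter windows matched 7 of 9 members by symbol. Named list genes are those past the threshold, otherwise the 2 largest changes; likeness was Pearson r over 5 arrays, among genes ranging over at least 1 log2 unit. The members and lists were chosen with earlier results of these data known. Alternatives varied the offset, signal filter, scaling, time scale, unit of the fit, spike-in covariate and the arrays.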

Additional observations from a re-analysis of the deposited data

How the results depend on the processing

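No class I member probe set passed under any of the 14 alternatives, which were offsets 4 times smaller and larger, no signal filter or a minimum 2 times higher, equal array medians, quantile normalization, linear hours, the brightest probe set per gene, the spike-in covariate and each array left out. With no signal filter all 25 member probe sets were fitted, but then 0 of all 54613 probe sets passed, so that setting says nothing about them. The sign of the change was the same in every setting that fitted them for the brightest TAPBP probe set, the brighter HLA-E one (0.17 to 0.57) and the dimmer tested HLA-F one (-0.75 to -0.07). It turned for the others. Both signal filters, the brightest probe set per gene and the fit without the 48 h array leave a change as it was, so they could not turn a sign. Changes without the 0 h or the 192 h array are still 4 times the slope per step, so they extend the line past the arrays used. With 1 array left out, HLA-C ranged from -0.88 to 0.65 and from -0.27 to 0.0292 in its brighter and dimmer tested probe sets, B2M from -0.38 to 0.13 and from -0.14 to 0.0316, the dimmer HLA-E from -0.0728 to 1.1, the brighter HLA-F from -0.71 to 0.36 and the dimmer TAPBP from -0.41 to 0.39. Quantile normalization gave 0.00198 for the brighter B2M. Linear hours gave 0.23 for the brighter HLA-C and 0.00311 for the dimmer TAPBP. The spike-in covariate gave 0.40 and 0.11 for HLA-C and 0.0605 for the dimmer B2M.

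The number of pathway genes that fell, 3 in the reported fit, was 0 with no signal filter, 5 with the brightest probe set per gene (IFI44 and NFKB1 added), 5 with the spike-in covariate (IFI44 and IFITM1 added) and 0 to 4 with 1 array left out: 1 without the 0 h array (IFITM2), 1 without the 24 h array (IFI44L) and 0 without the 192 h array; the cause was not tested. IFI44L was also lost with the smaller offset (adjusted p = 0.0543) and with quantile normalization (0.059). Over all probe sets 293 rose and 199 fell. Equal array medians gave 227 that rose and 250 that fell, linear hours 186 that rose, the spike-in covariate 120 and 115, and 1 array left out 93 to 322 and 44 to 199. No paired analysis was possible because each time point had 1 array. Dim signals limit HLA-B, TAP1, TAP2 and NLRC5, for which neither a change nor its absence can be read.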
